A study of Mus musculus with 10 samples.

Results

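The BCL2 family genes decide whether a cell keeps its mitochondria intact under stress. The members described here are the anti-apoptotic genes Bcl2, Bcl2l1 and Mcl1, the pore-forming genes Bax and Bak1, and the BH3-only genes Bad, Bid, Bbc3, Bcl2l11 and Pmaip1. They were taken by gene symbol and not by a cutoff on a measured value, although earlier results of these data were known. All 10 were found among 27665 genes. All 10 also passed the filter on low counts, which kept 15104 genes.

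Anti-apoptotic proteins hold the pore-forming proteins BAX and BAK in check at the outer mitochondrial membrane. BH3-only proteins, named for the single homology domain they share with the rest of the family, sense stress and either block the anti-apoptotic proteins or activate BAX and BAK directly. Once the membrane is breached, cytochrome c leaves the mitochondria and caspases are activated. In beta cells, Bbc3 (encoding PUMA), Bcl2l11 (encoding BIM) and Mcl1 are known as points where endoplasmic reticulum stress and cytokines meet the death machinery.

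RNA was sequenced from whole pancreatic islets of male C57BL/6J mice, an inbred strain, aged 8 to 10 weeks. The mice received western diet (5 mice) or standard chow (5 mice) for 4 weeks, and no gene was altered in either group. Each mouse gave 1 library. Of the western diet mice, 4 came from cage 4 and 1 from cage 2, and all 5 chow mice came from cage 3, so diet and cage cannot be told apart. Total counts were 1.65e+07 to 2.39e+07 per library. The islet label fitted its markers, since 10 beta cell genes, insulin among them, summed to between 242600 and 277400 CPM (counts scaled to library size) on western diet and between 231800 and 267900 CPM on chow. In whole islets, fewer cells of a type and less RNA per cell cannot be told apart.

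The levels of different members were set side by side in FPKM (fragments per kilobase of gene length, scaled to library size) as deposited by the authors. Levels compared between genes depend on the length used. For Bcl2l1 it was 4586 bases, the exonic bases of all transcripts together, while the longest single transcript has 2568. For Mcl1 both are 3418 bases, so these FPKM set Bcl2l1 lower beside Mcl1 than the longest transcripts would. Mcl1, which encodes a short-lived anti-apoptotic protein, led the family at 42.9 ± 3.07 FPKM on western diet and 48.0 ± 2.10 FPKM on chow (SD, n = 5 each). It was followed by Bax (18.1 ± 1.80 and 17.7 ± 2.30 FPKM), Bbc3 (11.98 ± 1.99 and 15.5 ± 1.62 FPKM) and Bcl2l1, which encodes BCL-XL (13.4 ± 1.14 and 13.0 ± 1.31 FPKM), each given for western diet and then for chow. Below them came Bad (9.09 ± 0.787 FPKM on western diet and 7.84 ± 0.533 FPKM on chow), Bak1 (3.41 ± 0.465 and 3.50 ± 0.252 FPKM), Bcl2l11 (1.77 ± 0.155 and 1.82 ± 0.223 FPKM) and Bid (1.148 ± 0.140 and 1.19 ± 0.286 FPKM).

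Bcl2 itself was the least abundant member by mean FPKM over the 10 libraries. It had 0.477 ± 0.0627 FPKM on western diet and 0.552 ± 0.0459 FPKM on chow, beside 0.495 ± 0.307 and 0.583 ± 0.0937 FPKM for Pmaip1 (SD, n = 5 each). Over all 10 libraries the values of Mcl1 lay wholly above those of Bax, those of Bcl2l1 above those of Bad, those of Bad above those of Bak1, and those of Bak1 above those of Bcl2l11. The ranges over all libraries overlapped between Bcl2l11 and Bid and between Bid and Pmaip1, although within each of the 10 libraries Bcl2l11 was above Bid and Bid above Pmaip1. Bax was above Bbc3 in 9 of 10 libraries, Pmaip1 above Bcl2 in 6 and Bbc3 above Bcl2l1 in 5, so the order of those neighbours was less settled. By mean FPKM, Mcl1 stood above 94.9% of the protein-coding genes tested and Bcl2 above 11.5%.

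**Figure D1:**
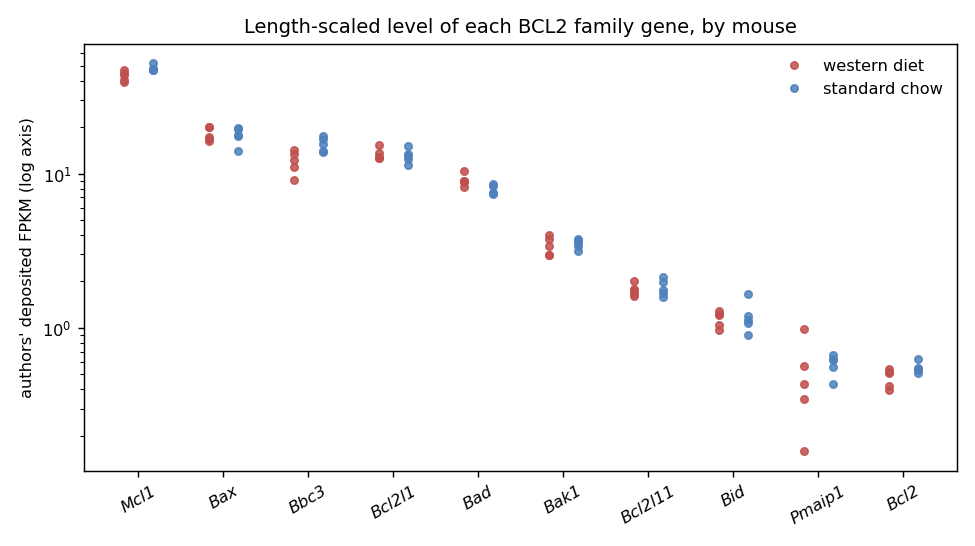
Deposited FPKM of each BCL2 family gene on a log axis, with 1 point per mouse, western diet left and standard chow right within each gene, ordered by mean level. Mcl1 stands highest, the diet means of Bax, Bbc3 and Bcl2l1 lie between 11.98 and 18.1 FPKM, and Bcl2 and Pmaip1 lie lowest.

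Among the 3 anti-apoptotic members Mcl1 made up most of the RNA by FPKM, with 74.95% to 76.9% of the summed FPKM of Mcl1, Bcl2l1 and Bcl2 on western diet, against 75.1% to 79.8% on chow. With the further anti-apoptotic gene Bcl2l2 in the sum, its share was 52.2% to 56.3% on western diet and 56.4% to 59.9% on chow. The ratio of Mcl1 to Bcl2l1 was 3.21 ± 0.150 on western diet and 3.71 ± 0.390 on chow, and the diets overlapped (SD, n = 5 each). Among the BH3-only members, Bbc3 made up 43.7% to 52.6% of the summed FPKM on western diet, against 54.2% to 60.4% on chow, without overlap. The sum of the BH3-only members divided by the sum of the anti-apoptotic members was 0.432 ± 0.0482 on western diet and 0.438 ± 0.0442 on chow. These sums and ratios depend on the gene lengths behind the FPKM, are descriptions of the libraries and were not tested.

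To compare the diets, counts were fitted with edgeR's quasi-likelihood test over all 15104 genes and p-values were adjusted over all of them by Benjamini-Hochberg. Fold changes are western diet over chow. Of the 10 members, 1 was called at an adjusted p under 0.05, Bbc3, and it was lower on western diet. Over all genes tested 10.8% were called, 5.27% higher and 5.5% lower, so the share of members called is near the background. The median log2 fold change of the 10 members was -0.05 and that of all genes was 0.0050. The edgeR test gave an unadjusted p under 0.05 for 3 members, Bbc3, Mcl1 and Bad, and for 26.9% of all genes tested, so this count too is near the background. DESeq2, run as an alternative, called 2 members, Bbc3 and Mcl1, of the 14.6% of genes it called.

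**Figure D2:**
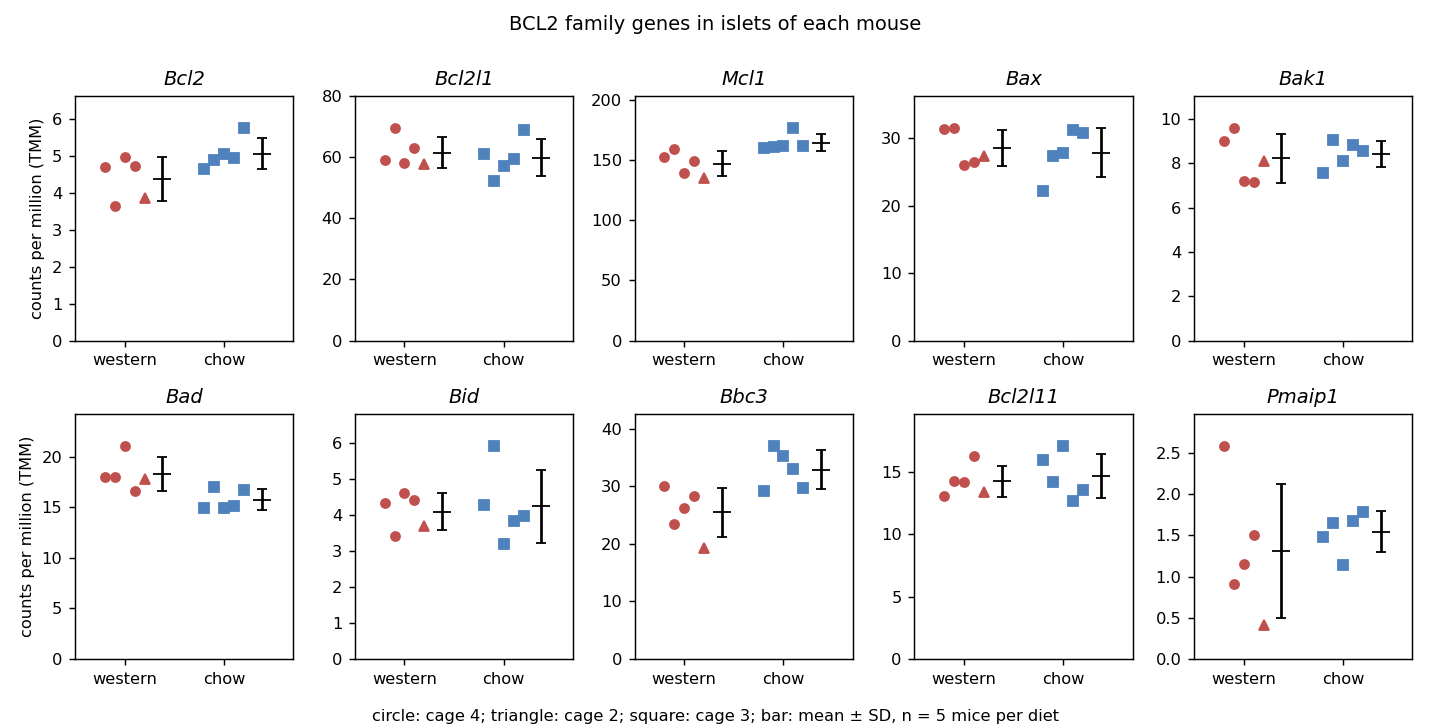
CPM of each BCL2 family gene in every mouse, with western diet left and standard chow right in each panel, marker shape for the cage, and mean ± SD (n = 5 mice per diet) beside the points. Bbc3 is lower on western diet with 1 mouse inside the chow range, all western diet values of Mcl1 lie below the lowest chow value, the highest of them by a narrow margin, and the remaining panels overlap.

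Bbc3 (ENSMUSG00000002083, GRCm38 chromosome 7, 16308393 to 16318205, plus strand) encodes PUMA, a BH3-only protein that binds all anti-apoptotic members and is induced by p53, by FOXO factors and by endoplasmic reticulum stress. The western diet libraries of cage 4 mouse 1, mouse 2, mouse 4 and mouse 5 and of cage 2 mouse 5 had 30.1, 23.5, 28.4, 26.3 and 19.3 CPM. The chow libraries of cage 3 mouse 1 to mouse 5 had 29.3, 36.99, 35.3, 33.1 and 29.7 CPM. The groups overlapped because western diet cage 4 mouse 1 lay above chow mouse 1 and mouse 5, and the other 4 western diet mice lay below every chow mouse. Bbc3 fell to 25.5 ± 4.25 CPM on western diet, against 32.9 ± 3.39 CPM on chow (SD, n = 5 each), a log2 fold change of -0.37 ± 0.11 (SE, adjusted p = 0.0422 by edgeR's quasi-likelihood test). The 95% interval was 0.661-fold to 0.909-fold.

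The Bbc3 call was close to the threshold. When single mice were left out, the edgeR adjusted p was 0.0957 without cage 4 mouse 2 and 0.0796 without cage 4 mouse 5 of the western diet group, and 0.0827, 0.0819 and 0.0645 without chow mouse 2, mouse 3 and mouse 4, so each of these 5 omissions ended the call. In the authors' deposited table the log2 fold change of Bbc3 was -0.37 with an adjusted p of 0.0153. Of all genes in it 7.04% had an adjusted p under 0.05.

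The 250 bases before the first start site that RefSeq lists for Bbc3 and the 250 before that of Mcl1 are shown because Bbc3 is the member that was called and Mcl1 the member without overlap between the diets. Both are from the RefSeq promoter table of GRCm38.p6, plus strand, written 5′ to 3′, at chr7:16309333-16309582 for Bbc3 and chr3:95658471-95658720 for Mcl1, and neither overlapped a GENCODE exon. The Bbc3 window lies within the span of the gene, upstream of the RefSeq start and downstream of the first GENCODE start. Capitals mark the GC box GGGCGG on either strand (CCGCCC on the other), and overlapping matches run together.
Bbc3: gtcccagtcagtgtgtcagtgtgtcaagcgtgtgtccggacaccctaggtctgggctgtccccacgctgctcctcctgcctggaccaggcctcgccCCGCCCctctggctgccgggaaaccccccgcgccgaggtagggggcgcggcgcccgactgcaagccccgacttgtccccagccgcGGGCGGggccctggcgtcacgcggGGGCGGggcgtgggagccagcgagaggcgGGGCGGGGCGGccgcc
Mcl1: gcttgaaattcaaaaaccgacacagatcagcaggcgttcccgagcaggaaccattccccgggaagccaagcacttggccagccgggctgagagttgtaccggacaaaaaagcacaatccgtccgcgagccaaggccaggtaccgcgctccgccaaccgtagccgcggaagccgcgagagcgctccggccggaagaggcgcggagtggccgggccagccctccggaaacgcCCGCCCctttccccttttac
The Bbc3 window held 5 GC boxes and the Mcl1 window 1, and 32.7% of all 32851 promoter windows held at least 1. GC content was 76.4% in the Bbc3 window and 64.4% in the Mcl1 window, against a median of 52.4% over all windows. Matches to the CCAAT box CCAAT (in 33.9% of all windows), the TATA box TATAAA (12.4%), the cyclic AMP element TGACGTCA (1.55%), the AP-1 site TGACTCA (4.46%), the E box CACGTG (6.02%), the C/EBP-ATF element TGATGCAA (0.791%) and the FOXO site GTAAACA (3.17%), searched on both strands, were in neither printed window. RefSeq lists further starts of Bbc3. The window at chr7:16310011-16310260 held 1 FOXO site and 1 GC box, and the window at chr7:16310181-16310430, which overlaps it, held 7 GC boxes, 1 CCAAT box and 1 E box. GC content was 72.4% and 81.6% in these windows, in that order.

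Several marker lists are set beside Bbc3 in the same libraries, and the sums of some did not overlap between the diets. Beside the counts below, 5.27% of all genes tested rose and 5.5% fell. Of 24 immediate early and dissociation genes, known to be switched on quickly by stimuli and by tissue handling, 20 fell and 0 rose (edgeR adjusted p under 0.05), and their summed level ranged over 11760 to 14560 CPM on western diet, against 19750 to 23960 CPM on chow. That list's mean separates the diets, and with it as a covariate Bbc3 had a log2 fold change of 0.29 (edgeR adjusted p = 0.991), so the list and diet cannot be told apart here. For 8 tested of 9 duct markers, 3 fell, with the summed level of all 9 at 565 to 674 CPM on western diet and 710 to 898 CPM on chow. Those 3 were the keratin gene Krt8 (mean 185.5 CPM on western diet and 333.5 CPM on chow), Krt19 (0.571 and 3.58 CPM) and Muc1 (1.51 and 2.99 CPM). Most of the difference in the sums came from Krt8. The other abundant genes of this list, Krt7 (234.8 and 225 CPM) and Krt18 (136.9 and 151.8 CPM), were not called by edgeR. Sox9 was as low as Krt19 and Muc1 (0.915 and 1.53 CPM), and Cftr was too low to test. The sum is therefore mostly that of Krt7, Krt8 and Krt18, and which cells of the islets hold this keratin RNA was not tested. For 8 endothelial markers, 1 fell, with sums of 349 to 408 CPM on western diet and 409 to 454 CPM on chow. Of 9 macrophage markers 1 fell, the complement gene C1qa (log2 fold change -0.51, edgeR adjusted p = 0.00071), while their sums of 57.1 to 101 CPM on western diet and 73.6 to 92.8 CPM on chow overlapped. Of 6 tested of 8 stellate and fibroblast markers 1 fell, the receptor gene Pdgfrb (-0.44, edgeR adjusted p = 0.0119), with sums of 26.8 to 54.1 CPM on western diet and 30.1 to 142 CPM on chow. Acinar markers, 0 of 11 called by edgeR (1 with an unadjusted p under 0.05, 1 called by DESeq2 and 1 by limma-voom), summed to 939 to 6225 CPM on western diet and 741 to 3013 CPM on chow. Of the 10 beta cell genes, the glucose transporter gene Slc2a2 (-0.54) and the zinc transporter gene Slc30a8 (-0.27) fell, and G6pc2, a glucose-6-phosphatase gene (0.47), and Iapp, which encodes amylin (0.19), rose (edgeR adjusted p = 0.0075, 0.0045, 3.8e-05 and 0.0193). Sums of 9 lymphocyte markers, 8 of which were too low to test, were 8.20 to 32.4 CPM on western diet and 6.91 to 16.3 CPM on chow. Those 8, among them Cd3e and Cd4, had 0 reads in at least 1 library of each diet. Of 6 alpha cell markers 1 rose, Ttr (0.195, edgeR adjusted p = 0.0302), and of 5 delta and PP cell markers 0 were called by edgeR. The sums of both lists overlapped between the diets. The part of the cell type markers in the Bbc3 result was not tested.

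Mcl1 (ENSMUSG00000038612, chromosome 3, 95658788 to 95663176, plus strand) encodes the anti-apoptotic protein that NOXA and PUMA bind and whose RNA and protein turn over quickly. The western diet libraries of cage 4 mouse 1, mouse 2, mouse 4 and mouse 5 and of cage 2 mouse 5 had 152, 160, 149, 139 and 135 CPM. The chow libraries of cage 3 mouse 1 to mouse 5 had 160, 161, 161, 177 and 162 CPM. The diets did not overlap, by a narrow margin between western diet cage 4 mouse 2 (159.5 CPM) and chow mouse 1 (160.0 CPM). Of the members, 1 of 10 was without overlap in this way, against 8.85% of all genes tested. Mcl1 averaged 147 ± 10.1 CPM on western diet and 164 ± 7.13 CPM on chow (SD, n = 5 each), a log2 fold change of -0.16 ± 0.05 (SE) that was not called (edgeR adjusted p = 0.0605). The 95% interval was 0.829-fold to 0.967-fold. Mcl1 was called with DESeq2 (adjusted p = 0.0299), and its adjusted p in the authors' deposited table was 0.0404.

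Bcl2l1 (ENSMUSG00000007659, chromosome 2, 152780668 to 152831728, minus strand) encodes BCL-XL, which protects beta cells and also acts on mitochondrial metabolism. Cage 4 mouse 1, mouse 2, mouse 4 and mouse 5 and cage 2 mouse 5 of the western diet group had 59.0, 69.7, 63.0, 58.0 and 57.7 CPM, against 61.1, 52.3, 57.2, 59.6 and 68.9 CPM in chow mouse 1 to mouse 5. The ranges coincide, with 1 high mouse in each diet. The log2 fold change was 0.04 ± 0.07 (SE, edgeR adjusted p = 0.776), and the 95% interval was 0.927-fold to 1.14-fold. That interval rests on the spread between mice and holds hardly any variation between cages. The values cover all transcripts of the gene, so the long and short splice forms were not separated, for Bcl2l1 or for Mcl1.

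Bcl2 (ENSMUSG00000057329, chromosome 1, 106538178 to 106714274, minus strand), the founding member, was covered by 64 to 100 reads per western diet library and 83 to 136 reads per chow library. It averaged 4.38 ± 0.591 CPM on western diet and 5.06 ± 0.419 CPM on chow (SD, n = 5 each). The diets overlapped, and the log2 fold change of -0.21 ± 0.14 was not called (SE, edgeR adjusted p = 0.353, interval 0.704-fold to 1.06-fold). Counting error alone gives a coefficient of variation of 11% on western diet and 10.2% on chow at these counts.

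Bax and Bak1 encode the proteins that form the pore itself. Bax (ENSMUSG00000003873, chromosome 7, 45461697 to 45466898, minus strand) averaged 28.6 ± 2.74 CPM on western diet and 27.9 ± 3.60 CPM on chow (SD, n = 5 each). Its log2 fold change was 0.03 ± 0.09 (SE, edgeR adjusted p = 0.845, interval 0.901-fold to 1.17-fold). Bak1 (ENSMUSG00000057789, chromosome 17, 27019810 to 27029009, minus strand) averaged 8.22 ± 1.09 CPM on western diet and 8.42 ± 0.598 CPM on chow (SD, n = 5 each). Its log2 fold change was -0.03 ± 0.11 (SE, edgeR adjusted p = 0.882, interval a change of -17.03% to 15.02%). Western diet cage 4 mouse 1 and mouse 2 were highest in their group for both genes, and chow mouse 1 was lowest in its group for both. Over the 45 pairs of members, the deviations of single libraries from the mean of their diet were most alike for Bax and Bak1, with Pearson's r = 0.783 over 10 libraries, beside a median of 0.058. The libraries share depth and handling across genes, so this r is a description.

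Among the other BH3-only members, Bad (ENSMUSG00000024959, chromosome 19, 6941861 to 6951898, plus strand) encodes a protein whose phosphorylation downstream of survival signals keeps it inactive and which also binds glucokinase in beta cells. The western diet libraries of cage 4 mouse 1, mouse 2, mouse 4 and mouse 5 and of cage 2 mouse 5 had 17.9, 18.0, 16.6, 21.0 and 17.8 CPM. The chow libraries of cage 3 mouse 1 to mouse 5 had 14.9, 17.04, 14.9, 15.1 and 16.7 CPM. Only chow mouse 2 and mouse 5 reached the lowest western diet value, that of cage 4 mouse 4. Bad averaged 18.3 ± 1.65 CPM on western diet and 15.7 ± 1.06 CPM on chow (SD, n = 5 each). Its log2 fold change of 0.21 ± 0.08 was not called (SE, edgeR adjusted p = 0.102). The interval was 1.03-fold to 1.31-fold, the only one of the 10 that lay wholly above 1.

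Bid (ENSMUSG00000004446, chromosome 6, 120891930 to 120916853, minus strand), which caspase 8 cleaves to link death receptors to mitochondria, had 3.41 to 4.61 CPM on western diet and 3.20 to 5.91 CPM on chow. Its log2 fold change was -0.06 ± 0.17 (SE, edgeR adjusted p = 0.868), with a wide interval of 0.749-fold to 1.23-fold. Bcl2l11 (ENSMUSG00000027381, chromosome 2, 128126038 to 128162547, plus strand) encodes BIM, an activator of BAX and BAK that FOXO factors and endoplasmic reticulum stress induce. It had 13.0 to 16.3 CPM on western diet and 12.6 to 17.04 CPM on chow, and its log2 fold change of -0.04 ± 0.10 was not called (SE, edgeR adjusted p = 0.816, interval 0.843-fold to 1.12-fold).

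Pmaip1 (ENSMUSG00000024521, chromosome 18, 66458604 to 66465550, plus strand) encodes NOXA, which binds MCL1 and is induced by p53 and by ATF4. The western diet libraries of cage 4 mouse 1, mouse 2, mouse 4 and mouse 5 and of cage 2 mouse 5 had 55, 16, 28, 19 and 10 reads, or 2.58, 0.91, 1.503, 1.152 and 0.419 CPM. The chow libraries of cage 3 mouse 1 to mouse 5 had 28, 34, 20, 28 and 42 reads, or 1.48, 1.65, 1.14, 1.67 and 1.78 CPM. The western diet mice held both the highest and the lowest value of all 10, and every chow value lay between them. The coefficient of variation was 61.8% on western diet, where counting error gives 23.2%, and 16.1% on chow, where counting error gives 18.7%. The log2 fold change was -0.24 ± 0.35 (SE, edgeR adjusted p = 0.717), and the interval of 0.509-fold to 1.42-fold leaves the difference between the diets unresolved. The value rested on the extreme mice, at -0.65 (edgeR adjusted p = 0.236) without western diet cage 4 mouse 1 and 0.0078 (0.992) without cage 2 mouse 5.

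**Figure D3:**
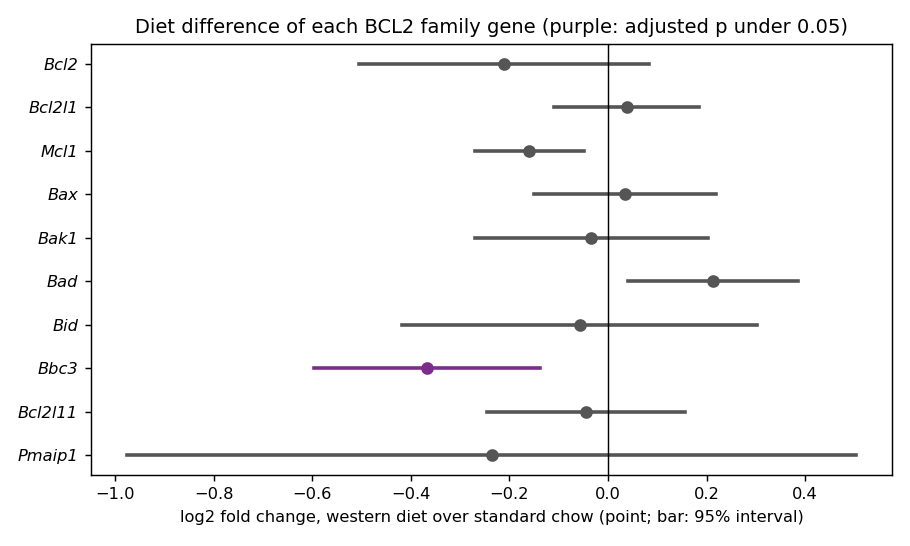
Log2 fold change of western diet over standard chow for each BCL2 family gene (point) with its 95% interval (bar) from the edgeR fit over 5 mice per diet. The intervals of Bbc3 and Mcl1 lie below 0 and that of Bad lies above 0, and Pmaip1 has the widest interval.

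Bbc3 and Pmaip1 ranked the western diet mice alike at both ends, with cage 4 mouse 1 highest and cage 2 mouse 5 lowest. Their deviations from the diet means had Pearson's r = 0.769 over 10 libraries, the second highest of the 45 pairs of members. Among 10388 other protein-coding genes of at least 5 CPM, the deviations most like those of Bbc3 included those of Nars (r = 0.954 over 10 libraries) and Psph (0.938). Both were picked for having the highest r of this search, and the libraries share depth and handling, so these r are descriptions. Nars encodes an asparaginyl-tRNA synthetase and Psph the last enzyme of serine synthesis. Their differences between the diets did not follow that of Bbc3. Nars rose to 237, 195, 221, 233 and 165 CPM in western diet cage 4 mouse 1, mouse 2, mouse 4, mouse 5 and cage 2 mouse 5, against 131, 176, 169, 159 and 141 CPM in chow mouse 1 to mouse 5 (log2 fold change 0.44 ± 0.11 SE, edgeR adjusted p = 0.0301). Psph (log2 fold change 0.18, adjusted p = 0.402) was not called by edgeR.

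The stress-induced genes Chac1, which encodes an enzyme that breaks down glutathione, and Trib3, which encodes a pseudokinase, were singled out here after their values were seen. In western diet libraries cage 4 mouse 1 was highest in both, at 120 CPM for Chac1 and 20.6 CPM for Trib3, and cage 2 mouse 5 lowest, at 41.4 CPM and 7.37 CPM. Their chow libraries had 50.3 to 105 CPM of Chac1 and 8.81 to 16.0 CPM of Trib3. Neither was called between the diets (edgeR adjusted p = 0.615 for Chac1 and 0.795 for Trib3).

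**Figure D4:**
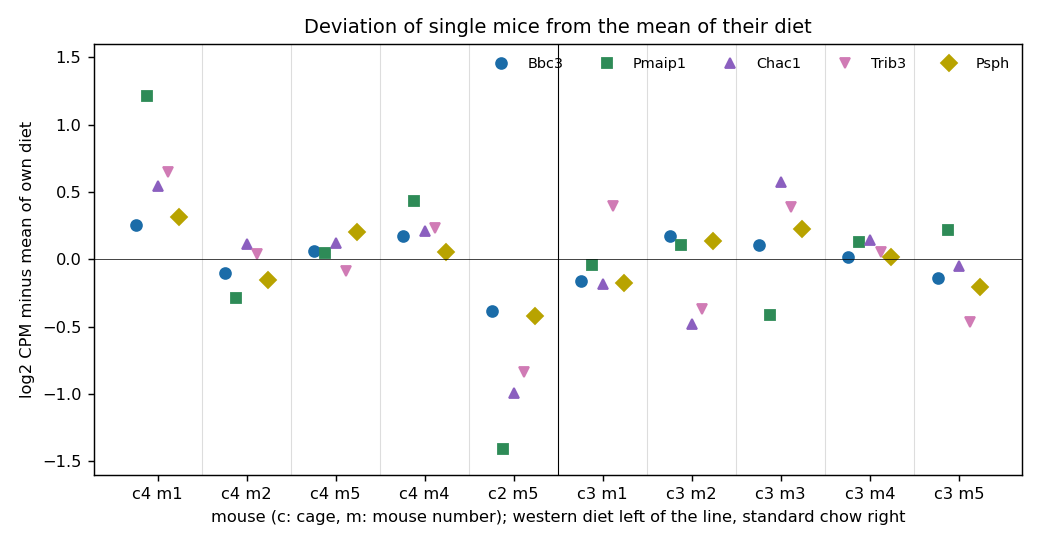
Log2 CPM of Bbc3, Pmaip1, Chac1, Trib3 and Psph in each mouse minus the mean of its own diet, with western diet left of the line and standard chow right. All 5 genes are above their mean in western diet cage 4 mouse 1 and below it in western diet cage 2 mouse 5, and in chow mice the genes scatter without a shared extreme mouse.

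The reads of some members could belong to a neighbour, because no source used here says whether the counting used strand. In GENCODE M21, 20.5% of the exonic bases of Bad lay within exons of Gpr137 on the opposite strand, 17.7% of those of Bid within Bcl2l13, and 18.2% of those of Bak1 within Ggnbp1. A further entry named Ggnbp1 held 7.4% of those of Bak1. The GENCODE coordinates of Bad and Pmaip1 differ from the deposited ones, so their shares are those of another gene model. For Bcl2, 6.1% lay within an antisense gene with 2 reads in all 10 libraries. For Bax, 12.2% lay within Gm45808, a readthrough annotation on the same strand that was not analysed here. Bbc3, Mcl1, Bcl2l1, Bcl2l11 and Pmaip1 shared no exonic base with another gene. Of the 50-base words of the longest transcript, at most 0.2% recurred in other genes' transcripts for every member but Bax, where 13.8% recurred in Gm45808.

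Of 15 further BCL2 family genes 9 were tested, and edgeR called 0, against 10.8% of all genes. In this list 1 had an unadjusted p under 0.05, against 26.9% of all genes, and DESeq2 and limma-voom called 0. The median log2 fold change was -0.05. Bcl2l2, which encodes the anti-apoptotic BCL-W, was the most abundant of these in CPM, at 99.5 ± 5.19 CPM on western diet and 92.7 ± 4.79 CPM on chow (SD, n = 5 each, log2 fold change 0.10, edgeR adjusted p = 0.206). By FPKM it averaged 22.3 on western diet and 20.8 on chow. Bnip3 (0.15, adjusted p = 0.146), which acts in mitophagy and cell death, the BH3-only gene Bik (-0.39, 0.243) and Bnip3l (0.07, 0.355) were not called by edgeR. The paralogs Bcl2a1a, Bcl2a1b and Bcl2a1d, near-identical genes of blood cells, had at most 19 reads in a library, and with Bcl2l10, Hrk and Bcl2l15 they were too low to test.

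Downstream of the mitochondria, 16 genes of the apoptosome, caspases and death factors were tested. Of these 2 rose and 3 fell, against 5.27% and 5.5% of all genes, with a median log2 fold change of -0.03. Parp1, a DNA repair enzyme that caspases cleave, rose to 78.4 ± 4.84 CPM on western diet, against 65.6 ± 2.57 CPM on chow (SD, n = 5 each, log2 fold change 0.26, edgeR adjusted p = 0.0057), and kept its call in 10 of 10 fits that each left out 1 mouse. Endog, a mitochondrial nuclease, rose (0.38, adjusted p = 0.0396). Casp12, which lay under 1 CPM, was among those that fell (-1.28, edgeR adjusted p = 0.0493). With 1 mouse left out at a time these calls were kept in 4 of 10 fits for Endog and 1 for Casp12. The apoptosome genes Apaf1 (0.04), Casp9 (-0.03) and Cycs (0.24), which encodes cytochrome c, had edgeR adjusted p of 0.870, 0.873 and 0.292.

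Among 7 tested genes of a list named for the inhibitors of apoptosis proteins 2 fell and 0 rose, against 5.5% and 5.27% of all genes. Their median log2 fold change was -0.06. The list follows gene families, and its members do not all restrain caspases. Birc3, which encodes the ubiquitin ligase cIAP2, fell to 8.87 ± 1.36 CPM on western diet, against 14.4 ± 2.55 CPM on chow (SD, n = 5 each, log2 fold change -0.69, edgeR adjusted p = 0.0030), and kept its call in 10 of 10 fits that each left out 1 mouse. Xiap, which encodes the direct caspase inhibitor, fell to 64.7 ± 4.87 CPM on western diet, against 74.6 ± 2.41 CPM on chow (-0.21, edgeR adjusted p = 0.0229), and kept its call in 9 of these fits. Naip2 (-0.19, adjusted p = 0.0701) and Cflar (0.32, 0.193), which encodes the caspase 8 regulator c-FLIP, were not called by edgeR.

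Of 25 tested genes whose products bind BCL2 family proteins or set their turnover, 1 rose and 4 fell, against 5.27% and 5.5% of all genes. Their median log2 fold change was 0.01. Btrc, a substrate receptor of an SCF ubiquitin ligase, fell (log2 fold change -0.32, edgeR adjusted p = 0.0012) and kept its call in 10 of 10 fits that each left out 1 mouse. Bag3, a heat-induced cochaperone (-0.70, adjusted p = 0.0242), Ywhaz, a 14-3-3 protein gene (-0.50, 0.0298), and Itpr3, a calcium release channel gene of the endoplasmic reticulum (-0.34, 0.0487), fell, and Dynll1, a dynein light chain gene (0.32, 0.0264), rose. These calls were kept in 6 of 10 such fits for Bag3, 6 for Ywhaz, 3 for Itpr3 and 3 for Dynll1. Huwe1, which encodes the ligase MULE that marks MCL1 for degradation (-0.15, edgeR adjusted p = 0.0911), and Usp9x, which encodes a deubiquitinase of MCL1 (0.06, 0.522), were not called.

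Among 27 tested transcription factors and kinases that act on BCL2 family genes or proteins 1 rose and 5 fell, against 5.27% and 5.5% of all genes. Their median log2 fold change was -0.05. Ddit3, which encodes CHOP, a stress factor upstream of Bcl2l11 and Bbc3, had 55.4, 42.9, 44.6, 48.8 and 36.7 CPM in western diet cage 4 mouse 1, mouse 2, mouse 4, mouse 5 and cage 2 mouse 5, against 157, 114, 153, 83.5 and 79.1 CPM in chow mouse 1 to mouse 5. Every western diet value lay below every chow value (log2 fold change -1.36 ± 0.23, SE, adjusted p = 0.0097 by edgeR). The AP-1 gene Jun (-1.02) and the stress factor gene Atf3 (-1.20) fell as well, and both were already counted on the immediate early list. The forkhead genes Foxo1 (-0.26) and Foxo3 (-0.24), whose products can induce Bbc3 and Bcl2l11, also fell. Ppp1r13l, which encodes the p53 inhibitor iASPP, rose to 11.4 ± 1.67 CPM on western diet, against 7.21 ± 0.989 CPM on chow (SD, n = 5 each, log2 fold change 0.66, edgeR adjusted p = 0.0031). With 1 mouse left out at a time, Jun, Ddit3, Foxo1 and Ppp1r13l kept their calls in 10 of 10 fits, Atf3 in 8 and Foxo3 in 3. Trp53, which encodes p53 (-0.0073, edgeR adjusted p = 0.967), and Atf4 (0.05, 0.588) were not called.

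Of 19 tested p53 targets 2 rose and 1 fell, against 5.27% and 5.5% of all genes, with a median log2 fold change of 0.04. Aen, which encodes a nuclease of p53-dependent death, rose to 22.2 ± 1.33 CPM on western diet, against 16.8 ± 0.717 CPM on chow (SD, n = 5 each, log2 fold change 0.40, edgeR adjusted p = 0.0021). The cell cycle inhibitor gene Cdkn1a rose (0.67, adjusted p = 0.0452), and Btg2, which is also on the immediate early list, fell (-0.48, 2.8e-05). With 1 mouse left out at a time, Aen and Btg2 kept their calls in 10 of 10 fits and Cdkn1a in 1. Of 12 tested death receptor genes 1 fell, against 5.5% of all genes. It was Tnfsf10, which encodes the ligand TRAIL (-0.30, edgeR adjusted p = 0.0482), and it kept its call in 2 such fits. The TRAIL receptor gene Tnfrsf10b (-0.82, 0.0725) and the TNF receptor gene Tnfrsf1b (0.74, 0.0816) were not called.

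**Figure D5:**
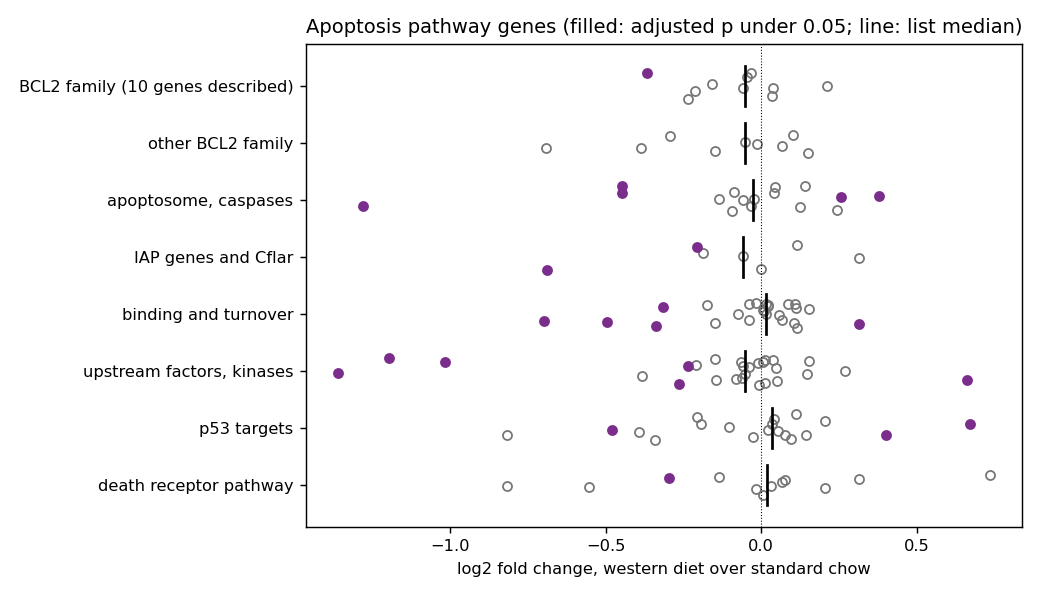
Log2 fold change of western diet over standard chow for every tested gene of the BCL2 family and of 7 lists of the apoptosis pathway, filled where the edgeR adjusted p is under 0.05, with a line at each list's median. The medians lie between -0.06 and 0.04, and the called genes with the largest changes, Ddit3, Casp12, Atf3 and Jun, lie below 0.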

How the data were processed

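The authors deposited 1 table that gives, per gene and library, raw counts (whole numbers without normalization) and FPKM. The same deposited table holds log2 fold changes and p-values of the authors' own comparison, and the gene length. Per the submitters' processing notes the tools were STAR 2.5, HTSeq 2 and DESeq2 and the builds mm10 and GRCm38, without their order, and per the labels' protocols an NEBNext Ultra kit was used. A further 10 columns of normalized values were not used.

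The test on the counts was that of edgeR 4.0.16 under R 4.3.3 (filterByExpr with a minimum count of 10, TMM factors, robust quasi-likelihood test with no covariate, Benjamini-Hochberg over 15104 genes, called under 0.05). SE is the absolute log2 fold change over the square root of F. CPM use TMM factors; log2 CPM use a prior count of 2. No 2 libraries were identical, and the SD between mice includes counting error. Total counts of 1.65e+07 to 2.39e+07 limit members with few reads. The script was tested on simulated data. The labels give 1 mouse per library, and p-values set the diet difference against the spread between mice. Mice of a diet mostly shared a cage, so variation between cages is hardly part of that spread.

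The members and lists were chosen with earlier results of these data known. The text names all 10 members, up to 4 genes with the smallest p per list, those of at least 1 CPM first, and the 3 genes most like a called member. Genes named outside this rule (Chac1, Trib3, Casp12, Casp9, Apaf1, Cycs, Itpr3, Huwe1, Usp9x, Atf3, Foxo3, Trp53, Atf4, the marker genes and the untested paralogs) were added after their values were seen. Some genes that the rule names are not reported here. Promoters are from RefSeq, with windows for 9 members. Alternatives were other scaling factors (RLE, upper quartile), no low-count filter, at least 5 CPM, DESeq2 1.42.0, limma-voom (limma 3.58.1), no robust moderation, protein-coding genes only, a covariate (mean of the immediate early list), a block for the mouse number, and mice left out.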

Additional observations from a re-analysis of the deposited data

Results flagged for a closer look

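Mcl1 was at 176.9 CPM in chow cage 3 mouse 4, far from the other 4 chow mice, which lay between 160.0 and 161.6 CPM. The gap to the nearest of them was 0.905 of the range of the group, above the cutoff of 0.71 for 5 mice. This was the 1 group flagged of 20 groups of 5 mice checked in this way, about the number of flags that chance alone gives. The cause of this gap was not tested. Without that mouse the log2 fold change of Mcl1 was -0.14 (edgeR adjusted p = 0.122). Of the 10 omissions of 1 mouse, that of western diet cage 4 mouse 2 gave a call for Mcl1 (-0.19, edgeR adjusted p = 0.0405).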

How the results depend on the processing

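The number of members called was 1, and 2 with upper quartile factors, with a minimum of 5 CPM, with DESeq2 and with protein-coding genes only, where Mcl1 joined Bbc3 and 10.6%, 15.3%, 14.6% and 12.2% of all genes were called, against 10.8%. It was 0 to 1 with 1 mouse left out at a time (without western diet cage 4 mouse 2 it was Mcl1 in place of Bbc3), while all genes called were 938 to 1813, against 1627 with all mice (1055 and 985 without western diet cage 4 mouse 5 and mouse 4, and 938 and 1050 without chow mouse 1 and mouse 3). It was 1 when cage 2 mouse 5 of the western diet group and chow mouse 1 were both left out (Bbc3, edgeR adjusted p = 0.0292). Mouse numbers are counted within cages and do not pair the mice. Between western diet and chow mice, log2 CPM deviations from the diet means were correlated over genes of at least 5 CPM. Pearson's r was -0.08 to 0.139 for same-numbered mice and -0.274 to 0.245 for the others. With the mouse number as a replicate block, edgeR called 841 genes and 0 members (2 with an unadjusted p under 0.05), with Bbc3 at -0.31 (adjusted p = 0.136) and Bcl2l11 at 0.025.

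With a covariate, the mean of the immediate early list, edgeR called 0 genes (687 with an unadjusted p under 0.05) and 0 members (0 unadjusted). That mean separates the diets, with Pearson's r = -0.969 to diet, so this fit has little left to test, and its signs turned: Mcl1 0.19, Bak1 0.32, Bad -0.080, Bbc3 0.29, Bcl2l11 0.28, Pmaip1 1.89, Atf3 1.40, Birc3 0.0039, Ddit3 0.35, Foxo1 0.020, Foxo3 0.31 and Ywhaz 0.62 (log2). Over 21 alternatives Bbc3 was called in 14 and Mcl1 in 5, at adjusted p of 0.0118 to 0.991 and 0.0299 to 0.991, and no other member was called in any. Some members changed sign when mice were left out, with the cause not tested: Bax to -0.0016 without western diet cage 4 mouse 1 or mouse 2, -0.044 without chow mouse 1 and -0.022 without that mouse and western diet cage 2 mouse 5, Bcl2l1 to -0.0093 and -0.0060, Bak1 to 0.0091 and 0.0065, Pmaip1 to 0.0078, Bid to 0.094, and Bcl2l11 to 0.0075 and 0.0056 (log2).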
